A study of Mus musculus with 6 samples.

Results

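The proteasome genes described here were the 50 of 24062 rows of the gene count table whose symbol begins with Psma, Psmb, Psmc, Psmd, Psme, Psmf or Psmg followed by a digit. They were measured by RNA-seq in whole retinas of rd10 mice and of wild-type (WT) mice at postnatal day 30, with 3 libraries per genotype, each from 2 frozen retinas. Both groups carry the strain label C57Bl6/J. The rd10 mouse has a missense allele of Pde6b, a rod phosphodiesterase gene, and loses its rods after birth; the allele is present in every cell, and the labels give no treatment for either group. The libraries are named as in the count table, Rd10-3, Rd10-4 and Rd10-5 for rd10 and WT-1, WT-4 and WT-23 for WT. Whether the samples of a genotype came from separate animals is not stated in the labels; p-values thus reflect only how these samples vary, which may be technical.

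The proteasome is the large protease that degrades proteins tagged with ubiquitin. Its 20S core is a stack of rings of alpha subunits (Psma genes) and beta subunits (Psmb genes), of which Psmb5, Psmb6 and Psmb7 encode the catalytic ones. The 19S cap, built from ATPases (Psmc genes) and other subunits (Psmd genes), recognises and unfolds the substrate. In immune cells, and in other cells exposed to interferon, Psmb8, Psmb9 and Psmb10 are induced and their products take the places of the constitutive catalytic subunits, forming the immunoproteasome, whose peptides are loaded on MHC class I molecules. The genes Psme1 and Psme2 encode the interferon-inducible PA28 activator, which can cap the core in place of 19S. Photoreceptors make and turn over large amounts of outer segment protein.

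The start regions of 5 genes are shown, the interferon-inducible Psmb8, Psmb9 and Psme1 and the constitutive Psmb5 and Psmb6. The products of Psmb8 and Psmb9 replace those of Psmb5 and Psmb6. The start regions of Psme2, Psmb10 and its counterpart Psmb7 are not shown. The windows are from RefSeq (GRCm38.p6), which held 45 windows for 42 of the 50 genes, and run from 250 bases before the transcription start to 30 after it. Psmb8 lies at chr17:34197945-34198224 (plus strand), Psmb9 at chr17:34187301-34187580 (minus strand) and Psme1 at chr14:55578244-55578523 (plus strand). Psmb5 lies at chr14:54617966-54618245 (minus strand) and Psmb6 at chr11:70525107-70525386 (plus strand). Capitals mark matches, on either strand, to 4 motifs. These are the interferon-stimulated response element (GAAA and GAAA with any 2 bases between), the gamma-activated site TTCNNNGAA, the element TGACNNNGC of NRF1 and NRF2, factors that drive constitutive proteasome genes, and an NF-kB site (GGGA and TTCC with any 2 bases between).
Psmb8: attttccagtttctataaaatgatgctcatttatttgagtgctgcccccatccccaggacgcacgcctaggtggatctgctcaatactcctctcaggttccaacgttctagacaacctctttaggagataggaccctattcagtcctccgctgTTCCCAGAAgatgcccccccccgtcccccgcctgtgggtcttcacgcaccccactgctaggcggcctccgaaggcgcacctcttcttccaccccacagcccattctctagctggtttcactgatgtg
Psmb9: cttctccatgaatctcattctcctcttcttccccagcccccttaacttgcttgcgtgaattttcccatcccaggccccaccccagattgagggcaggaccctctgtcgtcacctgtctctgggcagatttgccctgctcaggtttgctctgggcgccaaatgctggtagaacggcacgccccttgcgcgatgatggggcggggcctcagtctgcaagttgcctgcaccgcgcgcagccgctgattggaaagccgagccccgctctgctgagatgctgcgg
Psme1: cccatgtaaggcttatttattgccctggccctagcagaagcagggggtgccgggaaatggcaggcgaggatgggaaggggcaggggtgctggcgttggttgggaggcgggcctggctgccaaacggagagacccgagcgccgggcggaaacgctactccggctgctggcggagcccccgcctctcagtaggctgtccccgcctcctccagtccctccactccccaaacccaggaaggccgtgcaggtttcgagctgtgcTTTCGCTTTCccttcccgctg
Psmb5: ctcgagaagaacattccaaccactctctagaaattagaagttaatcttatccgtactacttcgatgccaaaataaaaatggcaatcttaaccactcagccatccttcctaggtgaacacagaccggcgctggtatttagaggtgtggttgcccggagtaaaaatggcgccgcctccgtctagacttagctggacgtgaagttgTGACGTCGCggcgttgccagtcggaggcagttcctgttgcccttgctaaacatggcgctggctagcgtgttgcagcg
Psmb6: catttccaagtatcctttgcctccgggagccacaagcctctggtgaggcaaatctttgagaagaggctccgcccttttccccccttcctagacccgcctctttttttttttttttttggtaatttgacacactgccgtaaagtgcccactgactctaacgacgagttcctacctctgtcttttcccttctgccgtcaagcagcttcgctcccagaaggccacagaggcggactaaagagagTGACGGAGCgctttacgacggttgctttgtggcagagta

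Among the 3 inducible genes shown, Psmb8 held a gamma-activated site from base -97, counted from the RefSeq start. Psme1 held an interferon-stimulated response element from base 10 after the start, while the window of Psmb9 held none of these letters. In the GENCODE M21 annotation Psmb8 starts at 34197721, Psme1 at 55578123 and Psmb9, on the minus strand, at 34187764. These starts lie upstream of the windows shown, so the sequence there is not in them. The GENCODE starts of Psmb5 and Psmb6 lie within their windows. The NRF1/NRF2 letters stood from base -47 in Psmb5 and from base -9 in Psmb6. Of the 42 genes with a window, 6 held these letters, Psmb5 and Psmb6 among them. In all 32851 windows of the RefSeq table, with 300 bases each, the share with a match was 3.44% for the interferon-stimulated response element, 8.3% for the gamma-activated site, 12.4% for the NRF1/NRF2 element and 1.47% for NF-kB. In the 45 proteasome windows of the same length it was 11.1%, 6.67%, 13.3% and 2.22%, and constitutive genes such as Psmb3 and Psmd4 were among the 5 genes with the interferon letters. By the RefSeq starts, Psmb9 begins 226 bases from Tap1, the gene of a peptide transporter subunit on the opposite strand. Thus 275 bases of their windows are shared. No binding was measured in these samples, and a match describes the sequence only.

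Most interferon-inducible proteasome genes were higher in rd10 retinas, and of the constitutive genes 28 of 41 had a fitted change of less than 0.2 log2 units. Of the 5 immunoproteasome genes, 4 rose in rd10 (Psmb8, Psmb9, Psme1 and Psme2), and the fifth, Psmb10, had a positive log2 fold change that was not called. Of the 41 constitutive genes tested, 1 fell (Psmd8) and 40 were not called. A further gene with the prefix, Psmc3ip, fell. In all, 4 of the 47 tested members were higher and 2 lower (edgeR quasi-likelihood test, adjusted p under 0.05 over all genes), against 7.12% of all 13905 tested genes called higher and 7.32% called lower. Over all members, the totals in each direction were thus near the background. The rd10 and WT libraries did not overlap for 10 of the 47 members, 4 above and 6 below, against 35.7% of all tested genes (17.1% above and 18.6% below). The median log2 fold change was 0.92 over the 5 immunoproteasome genes, -0.10 over the 41 constitutive genes and -0.04 over all tested genes. Psma8, Psmb11 and Psme2b were too low to be tested, the first pair with at most 2 counts in any library.

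**Figure D1:**
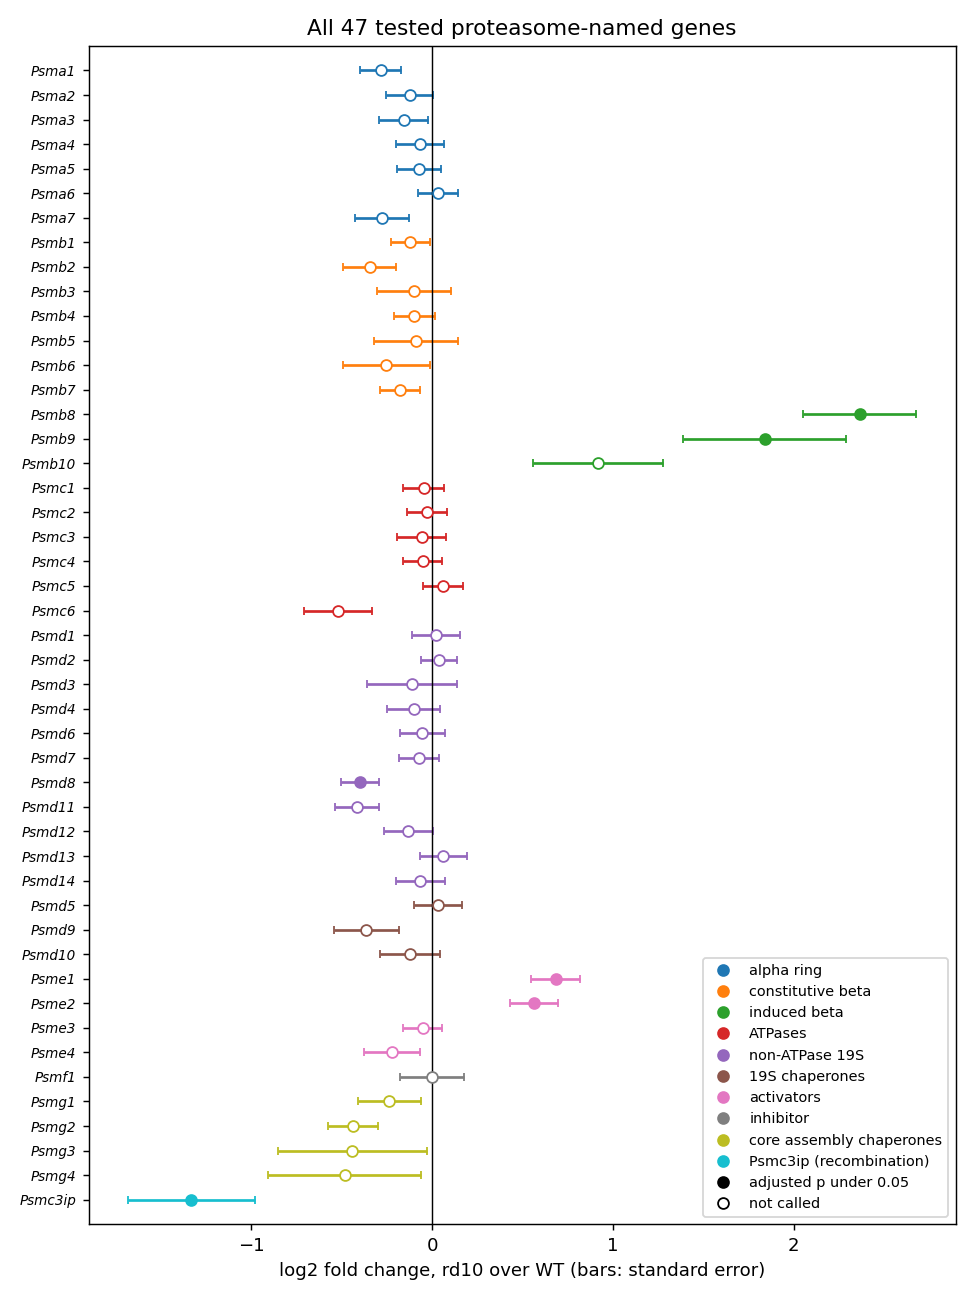
Log2 fold change of rd10 over WT (x axis) for each of the 47 tested proteasome-named genes (y axis), coloured by role, with standard errors as bars and filled points for genes with an adjusted p under 0.05. Psmb8, Psmb9, Psme1 and Psme2 lie right of the line of no change as filled points, and Psmd8 and Psmc3ip left of it. The open points lie between -0.52 and 0.92, a range that also holds the filled points of Psme1, Psme2 and Psmd8.

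Psmb8 encodes the inducible subunit that replaces Psmb5. It had 20.4, 15.3 and 11.7 CPM (counts scaled to a common library size with TMM factors) in Rd10-3, Rd10-4 and Rd10-5, against 3.92, 3.41 and 1.90 CPM in WT-1, WT-4 and WT-23. Every rd10 library lay above every WT library. The log2 fold change was 2.36 ± 0.31 (SE, n = 3 libraries per group; adjusted p = 0.00238), and the gene was called under all 18 alternative settings tried.

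Psmb9, whose product replaces that of Psmb6, was the least abundant of the 5. It had 4.07, 4.09 and 3.35 CPM in Rd10-3, Rd10-4 and Rd10-5, against 2.04, 0.766 and 0.475 CPM in WT-1, WT-4 and WT-23, which rest on 53, 48 and 44 counts in rd10 and 25, 11 and 7 in WT. The groups did not overlap, but WT-1 was more than the sum of the other WT libraries. The log2 fold change was 1.84 ± 0.45 (adjusted p = 0.0308), and adjusted p was 0.126 when WT-4 was left out, 0.111 for Rd10-3, 0.0785 for Rd10-4 and 0.0634 for Rd10-5, which ended the call each time.

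Psmb10, whose product replaces that of Psmb7, had 15.0, 19.2 and 10.8 CPM in Rd10-3, Rd10-4 and Rd10-5, against 12.1, 7.31 and 4.48 CPM in WT-1, WT-4 and WT-23. The groups overlapped, since WT-1 lay above Rd10-5. The log2 fold change of 0.92 ± 0.36 missed the threshold (adjusted p = 0.129). It passed without WT-1 (1.34, adjusted p = 0.0119), with a trend with transcript GC content removed from each library (0.90, adjusted p = 0.00624), with library size alone as the scaling (1.16, adjusted p = 0.0438), in DESeq2 (0.93, adjusted p = 0.0483) and, chosen after the data were seen, without both WT-1 and Rd10-4 (1.13, adjusted p = 0.0218).

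The PA28 genes rose by smaller folds and stood at higher levels in both genotypes. Psme1 had 58.9, 59.2 and 53.3 CPM in Rd10-3, Rd10-4 and Rd10-5, against 41.1, 33.4 and 32.1 CPM in WT-1, WT-4 and WT-23, with no overlap (log2 fold change 0.69 ± 0.14, adjusted p = 0.0131). Psme2 had 33.5, 30.4 and 31.3 CPM in Rd10-3, Rd10-4 and Rd10-5, against 24.0, 20.7 and 19.7 CPM in WT-1, WT-4 and WT-23, also with no overlap (0.56 ± 0.13, adjusted p = 0.0258). Leaving out WT-4 ended the call of Psme1 (adjusted p = 0.066), as did leaving out Rd10-3 (0.0721). For Psme2 the call ended when WT-4 (adjusted p = 0.109), Rd10-3 (0.131), Rd10-4 (0.0654) or Rd10-5 (0.0817) was left out, against a fold of 1.2 (0.0834), and with scaling to inner neuron genes (log2 fold change 0.29, adjusted p = 0.114). Psme2 has a near-identical copy, Psme2b (99.4% identity over 794 bases), with which the counting could share reads; Psme2b itself had 4, 2 and 8 counts in the rd10 libraries and 0, 0 and 2 in the WT libraries. The other activator genes were not called with TMM scaling, and Psme4 was with inner neuron scaling (-0.50, adjusted p = 0.0497): Psme3, which encodes the nuclear PA28 gamma subunit, averaged 128 ± 5 CPM in rd10 and 133 ± 11 CPM in WT, and Psme4, which encodes PA200, 38.8 ± 5.4 CPM in rd10 and 45.2 ± 5.6 CPM in WT (SD, n = 3 per group).

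**Figure D2:**
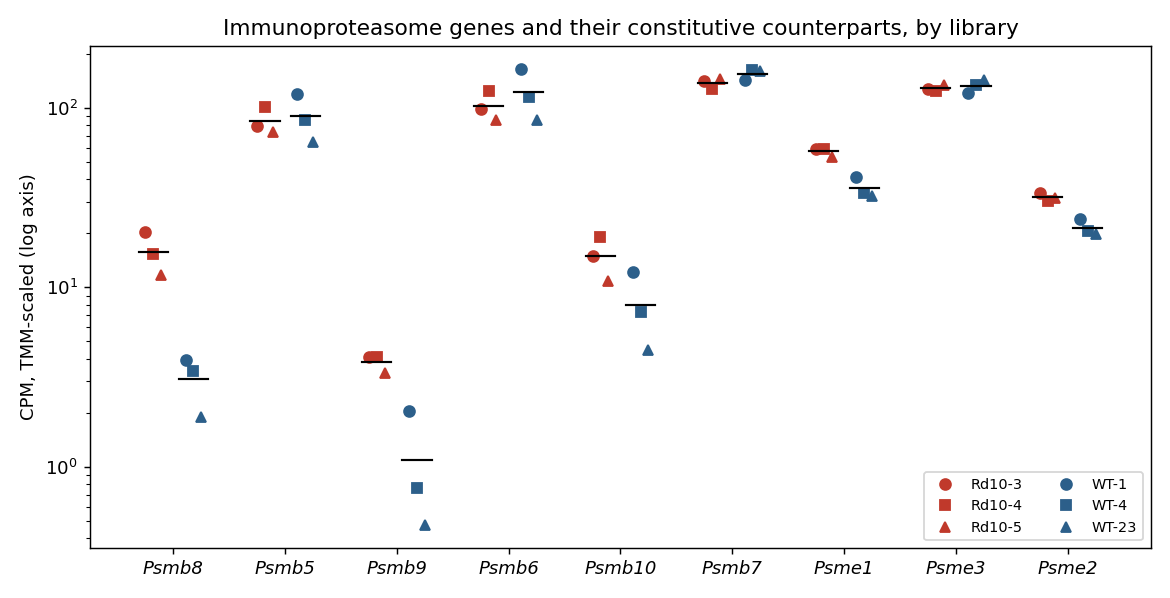
CPM on a log axis (y axis) in each library for the 5 immunoproteasome genes and for Psmb5, Psmb6, Psmb7 and Psme3 (x axis), with red points for rd10, blue for WT and black bars for group means. The groups are apart for Psmb8, Psmb9, Psme1 and Psme2 and overlap for Psmb10 and the 4 constitutive genes.

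Read within each library, where the scaling between libraries cancels, the counts of the inducible genes were higher in rd10 relative to those of their counterparts. The log2 ratio of Psmb8 to Psmb5 was -1.96, -2.73 and -2.64 in Rd10-3, Rd10-4 and Rd10-5, against -4.93, -4.65 and -5.08 in WT-1, WT-4 and WT-23, a difference of 2.44 ± 0.27 (SE, n = 3 libraries a genotype). The two-sided exact permutation p was 0.1, and no smaller one is possible with 3 libraries each. For Psmb9 to Psmb6 the difference was 2.29 ± 0.36 and for Psme1 to Psme3 0.74 ± 0.20, both with non-overlapping groups (exact p = 0.1). For Psmb10 to Psmb7 it was 1.17 ± 0.55 and the groups overlapped (exact p = 0.2). These are 4 pairs, and no adjustment could bring such a p under 0.05.

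Per length of the principal GENCODE M21 transcript, transcripts of the inducible catalytic subunits stayed the minority in both genotypes. These are RNA shares averaged over the whole retina, and no protein was measured here. Psmb8 made up 9.41 ± 2.61% of Psmb8 plus Psmb5 in rd10 and 1.84 ± 0.28% in WT (SD, n = 3 per group). Psmb9 made up 2.18 ± 0.24% of Psmb9 plus Psmb6 in rd10 and 0.480 ± 0.214% in WT, and Psmb10 8.87 ± 2.80% of Psmb10 plus Psmb7 in rd10 and 4.41 ± 2.35% in WT. Psmb8 stood at 9.70 ± 2.69 CPM per kilobase in rd10 and 1.89 ± 0.65 in WT, whereas Psmb5 stood at 94.1 ± 16.4 in rd10 and 100 ± 31 in WT. Such shares depend on the transcript length chosen for each gene, while the differences in log2 ratio do not.

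**Figure D3:**
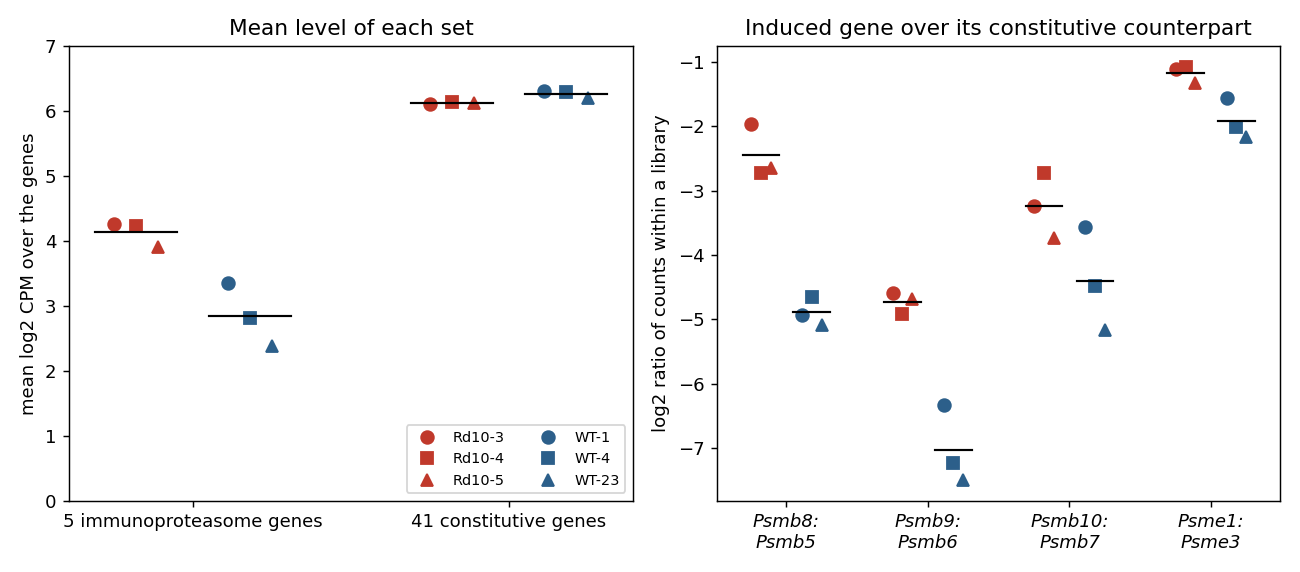
Left, mean log2 CPM (y axis) over the 5 immunoproteasome and the 41 constitutive genes in each library. Right, log2 ratio of the counts of an inducible gene to those of its counterpart within each library (y axis) for 4 pairs (x axis), with red points for rd10, blue for WT and black bars for group means. Constitutive means lie between 6.11 and 6.31 in all 6 libraries, and of the 4 ratios only Psmb10 to Psmb7 overlaps between the groups.

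As a set, the 5 immunoproteasome genes had a mean log2 CPM of 4.26, 4.23 and 3.91 in Rd10-3, Rd10-4 and Rd10-5, against 3.35, 2.81 and 2.38 in WT-1, WT-4 and WT-23. The 41 constitutive genes had 6.11, 6.14 and 6.12 in the same rd10 libraries, against 6.31, 6.29 and 6.19 in the WT libraries. The immunoproteasome mean minus the constitutive mean was 1.43 ± 0.27 log2 units higher in rd10 than in WT (SE, n = 3 libraries each). This is given as a description with no test, since the members were chosen with earlier results known. It ran from 1.23 to 1.66 when single libraries were left out.

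Microglial markers rose in the same libraries. All 15 microglial markers were called higher in rd10 (median 2.20 log2 units), at a summed level of 384 to 487 CPM in rd10, against 120 to 135 CPM in WT. Of 7 T and NK cell markers, 1 was tested and not called (Cd8a, 0.55 ± 0.29), and their summed level was 2.13 to 2.69 CPM in rd10 and 0.882 to 1.32 CPM in WT; of the T cell receptor complex genes, Cd3e had 0, 0 and 1 counts in rd10 and 0 in each WT library, and Cd3g had 4, 2 and 4 counts in rd10 and 0 in each WT library. The cytotoxic cell gene Nkg7 had 4, 1 and 3 counts in rd10 and 0, 1 and 0 in WT. The 3 B cell markers summed to 0.152 to 0.307 CPM in rd10 and 0.136 to 0.418 CPM in WT. Markers of other retinal cells rose too: 6 of 9 Mueller glia markers (list median 0.72), at a summed level of 10874 to 13444 CPM in rd10 and 6822 to 7790 CPM in WT, and 5 of 8 cone markers (list median 0.53), at 2526 to 2757 CPM in rd10 and 1712 to 2302 CPM in WT. The other way went 2 cone markers, among them Opn1sw (-0.41 ± 0.14, adjusted p = 0.0922), with every rd10 library below every WT library. Of 10 bipolar markers 4 were called higher (list median 0.40). None of the 9 amacrine or 8 ganglion cell markers was called, with 9 and 7 positive (list medians 0.22 and 0.17). These inner neuron lists set the inner neuron scaling used below. In bulk tissue, a change in the number of cells of a type and a change in RNA per cell cannot be told apart, and the part of these cell types in the immunoproteasome result was not tested.

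Of 11 genes of the MHC class I peptide pathway, 6 rose in rd10 and none fell. The class I light chain gene B2m averaged 299 ± 29 CPM in rd10 and 51.3 ± 11.7 CPM in WT (SD, n = 3 per group; log2 fold change 2.54 ± 0.18, adjusted p = 0.000398). H2-K1 and H2-D1, class I heavy chain genes, rose by 1.51 ± 0.14 and 1.57 ± 0.15 on the log2 scale. Tap1, which shares its start region with Psmb9, rose by 1.63 ± 0.29 (adjusted p = 0.00898). The peptide trimming gene Erap1 and the class I regulator gene Nlrc5 were the other two that rose, and the list's median was 1.01. The interferon regulator genes Irf9 and Irf8 rose by 1.67 ± 0.31 and 1.57 ± 0.32 on the log2 scale (adjusted p = 0.00988 and 0.0156), and Irf1 rose as well. The interferon gamma receptor genes were not called: Ifngr1 had -0.38 ± 0.13 (adjusted p = 0.092), with every rd10 library below every WT library, and Ifngr2 had 0.09 ± 0.13. This list of regulators is not given in full, so these genes are no tally of it. Irf1, a factor known to bind the shared start region of Psmb9 and Tap1, had 11.7, 14.1 and 13.3 CPM in rd10, against 7.03, 4.39 and 5.02 CPM in WT (1.25 ± 0.21, adjusted p = 0.00683). MHC class I genes are a family of close relatives, so their counts may share reads. The annotated Psmb9 gene overlaps Tap1 on the opposite strand, and Psme1 overlaps Emc9 on the opposite strand. The sources used here do not give the strand setting of the counting, so these overlaps may affect the counts.

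The 20S core genes showed no called change in the main fit, which used TMM scaling, all libraries and no GC adjustment. Of its 14 constitutive genes, 13 had negative log2 fold changes, from -0.34 to 0.03, and none was called by edgeR, by DESeq2 or by limma voom, while 2 had an unadjusted p under 0.05 (Psma1 and Psmb2, both lower). Psma1, an alpha ring gene, had 60.4, 57.5 and 62.9 CPM in rd10, against 68.1, 71.6 and 80.4 CPM in WT (-0.28 ± 0.11, adjusted p = 0.14). Psmb2, a beta ring gene, had 48.2, 48.6 and 43.9 CPM in rd10, against 70.6, 58.1 and 50.2 CPM in WT (-0.34 ± 0.15, adjusted p = 0.16). For both genes, and no other of the 14, every rd10 library thus lay below every WT library, against 18.6% of all tested genes. No share of all genes with an unadjusted p under 0.05 is given here, so counts at that level have no background. With inner neuron scaling both were called lower (-0.56, adjusted p = 0.0148 for Psma1 and -0.61, adjusted p = 0.0153 for Psmb2), and Psma7 (-0.55, adjusted p = 0.0243) and Psmb7 (-0.45, adjusted p = 0.0282) were among the other core genes called under it. Psmb2 was also called with the GC trend removed (-0.34, adjusted p = 0.0369). The summed core level ran from 1275 to 1312 CPM in rd10 and from 1348 to 1485 CPM in WT.

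The catalytic counterparts of the inducible subunits were among the genes not called with TMM scaling. Psmb5 had 79.5, 101 and 73.0 CPM in Rd10-3, Rd10-4 and Rd10-5, against 120, 85.9 and 64.2 CPM in WT-1, WT-4 and WT-23 (log2 fold change -0.09 ± 0.23, adjusted p = 0.829). Psmb6 had 98.4, 123 and 85.8 CPM in the rd10 libraries, against 165, 116 and 85.6 CPM in the WT libraries (-0.25 ± 0.24, adjusted p = 0.526). Psmb7 had 141, 127 and 144 CPM in the rd10 libraries, against 142, 163 and 160 CPM in the WT libraries (-0.18 ± 0.11, adjusted p = 0.33). The ranges of the genotypes overlapped for all 3; in Psmb5 and Psmb6 the highest value of WT, in WT-1, lay above every rd10 library and the lowest, in WT-23, below every one.

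Of the 17 genes of the 19S cap, 1 fell, a share near the 7.32% of all tested genes called lower. Psmd8, a lid subunit gene, had 162, 145 and 149 CPM in Rd10-3, Rd10-4 and Rd10-5, against 205, 207 and 190 CPM in WT-1, WT-4 and WT-23 (-0.40 ± 0.10, adjusted p = 0.040). The groups did not overlap, yet leaving out any library other than WT-1 ended the call, with adjusted p between 0.051 and 0.198, and so did RLE factors (0.0506), upper quartile factors (0.104), library size alone (log2 fold change -0.16, adjusted p = 0.356), no filter on low counts (0.0733), a fold of 1.2 (0.215) and leaving out both WT-1 and Rd10-4 (0.0669). Psmd11, another lid subunit gene, had 31.9, 37.0 and 37.8 CPM in rd10, against 44.9, 48.0 and 49.4 CPM in WT (-0.42 ± 0.12), and just missed the threshold (adjusted p = 0.0578; called in DESeq2, adjusted p = 0.0479, with WT-1 left out, 0.0355, with WT-1 and Rd10-4 left out, 0.0366, with inner neuron scaling, 0.00883, and with the GC trend removed, 0.0125).

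The ATPase gene Psmc6 had the most negative log2 fold change of the constitutive genes. It had 80.6, 66.6 and 89.9 CPM in Rd10-3, Rd10-4 and Rd10-5, against 88.6, 111 and 140 CPM in WT-1, WT-4 and WT-23 (-0.52 ± 0.19, adjusted p = 0.106). Rd10-5 lay above WT-1, so the groups overlapped, and the gene was called without WT-1 (-0.67, adjusted p = 0.0146), without WT-1 and Rd10-4 (-0.56, adjusted p = 0.0258), with inner neuron scaling (-0.80, adjusted p = 0.0201) and with the GC trend removed (-0.38, adjusted p = 0.00188). The most abundant members by CPM belong to the cap. Psmd2, a scaffold subunit gene, averaged 343 ± 7 CPM in rd10 and 333 ± 17 CPM in WT, Psmd1, its partner scaffold, 273 ± 25 CPM in rd10 and 269 ± 33 CPM in WT, and the ATPase gene Psmc5 206 ± 4 CPM in rd10 and 198 ± 19 CPM in WT, with adjusted p of 0.816, 0.927 and 0.748. Per kilobase of transcript, Psmc5 had the highest mean of the constitutive genes in rd10, at 157 ± 3 CPM per kilobase in rd10 and 150 ± 14 in WT, while in WT the mean of Psmb6 was higher (128 ± 24 in rd10 and 153 ± 50 in WT).

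The assembly factors and the inhibitor were not called in the main fit either. All 4 core assembly chaperone genes had negative log2 fold changes with TMM scaling, with a median of -0.44. Psmg2 had 14.0, 17.6 and 15.6 CPM in rd10, against 20.6 to 22.3 CPM in WT, without overlap (-0.44 ± 0.14, adjusted p = 0.0753), and was called with inner neuron scaling (-0.71, adjusted p = 0.0113) and without WT-1 and Rd10-4 (-0.55, adjusted p = 0.0407). Psmg3 and Psmg4, whose products act as a pair on the alpha ring, had wide errors (-0.44 ± 0.41 and -0.48 ± 0.42). Psmd9, a chaperone of the 19S base, had -0.36 ± 0.18 (adjusted p = 0.219), and was called with inner neuron scaling (-0.63, adjusted p = 0.0296) and with the GC trend removed (-0.37, adjusted p = 0.0371). Psmf1, which encodes the inhibitor PI31, averaged 59.2 ± 3.7 CPM in rd10 and 59.2 ± 14.0 CPM in WT (adjusted p = 0.999).

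Psmc3ip fell in rd10, but its product is a meiotic recombination cofactor that carries the prefix only because it binds a 19S subunit. It had 1.46, 3.15 and 2.43 CPM in Rd10-3, Rd10-4 and Rd10-5, against 7.60, 6.27 and 3.87 CPM in WT-1, WT-4 and WT-23 (-1.33 ± 0.35, adjusted p = 0.040). The groups did not overlap. Adjusted p was 0.135 when WT-4 was left out, 0.141 for Rd10-3, 0.102 for Rd10-5, 0.0502 with library size alone and 0.0641 against a fold of 1.2, so that each of these ended the call. The gene overlaps Mlx on the opposite strand, and the sources used here do not give the strand setting of the counting.

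Whether the constitutive genes as a whole sat below or above WT depended on the scaling. With TMM factors 34 of the 41 had negative log2 fold changes, with a median of -0.10 against -0.04 for all genes, and 28 of the 41 lay within 0.2 of zero. With library size alone 11 were negative and the median was 0.14, while with scaling to inner neuron genes all 41 were negative and the median was -0.37. Library size alone called 5 members higher and 0 lower (17.8% and 4.11% of all tested genes), and inner neuron scaling called 3 members higher and 13 lower (4.69% and 25.8% of all tested genes). These scalings moved the median of all genes by 0.24 and -0.27. The constitutive median minus that of all genes was -0.064, -0.063 and -0.062 under the 3 scalings. In raw shares, the 41 genes took 0.424 ± 0.011% of all counts in rd10 and 0.385 ± 0.012% in WT. Beside this, the 10 rod markers all fell, with a summed level of 19294 to 28267 CPM in rd10, against 95416 to 113685 CPM in WT.

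Part of the spread within genotypes followed GC content. Across the 41 constitutive genes, which share the same libraries, the log2 ratio of WT-1 to WT-23 correlated with transcript GC content (Pearson's r = 0.78, Spearman's rho = 0.80), and that of Rd10-4 to Rd10-3 did as well (r = 0.67, rho = 0.77). For the fitted change of rd10 over WT both were near 0 (r = 0.010, rho = 0.0040). WT-1 and Rd10-4 had the steepest positive slopes with GC content over all genes, 0.35 and 0.31 log2 units per 10 percentage points, and WT-23 the steepest negative one, -0.39. For 8 constitutive genes WT-1 exceeded WT-23 by more than 0.5 log2 units, and for Psmc6 it lay lower (log2 ratio -0.66). The change of rd10 over WT exceeded 0.5 in size for 1 of the 41 (Psmc6, lower). The former is a ratio of single libraries and the latter a fitted difference between groups of 3, which varies less by design. The immunoproteasome transcripts lie at the GC-rich end, between 52.8% and 56.5%, with a range of 37.0% to 58.3% for the constitutive ones. Their log2 ratio of WT-1 to WT-23 was 2.11 for Psmb9, 1.44 for Psmb10, 1.05 for Psmb8, 0.36 for Psme1 and 0.28 for Psme2. The fitted change of rd10 over WT was smaller than this ratio for Psmb9 (1.84) and Psmb10 (0.92). It was larger for Psmb8 (2.36), Psme1 (0.69) and Psme2 (0.56). With the GC trend removed, 11 members were called, 5 higher (all 5 immunoproteasome genes) and 6 lower, against 18% of all genes called higher and 17.6% called lower under that setting.

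**Figure D4:**
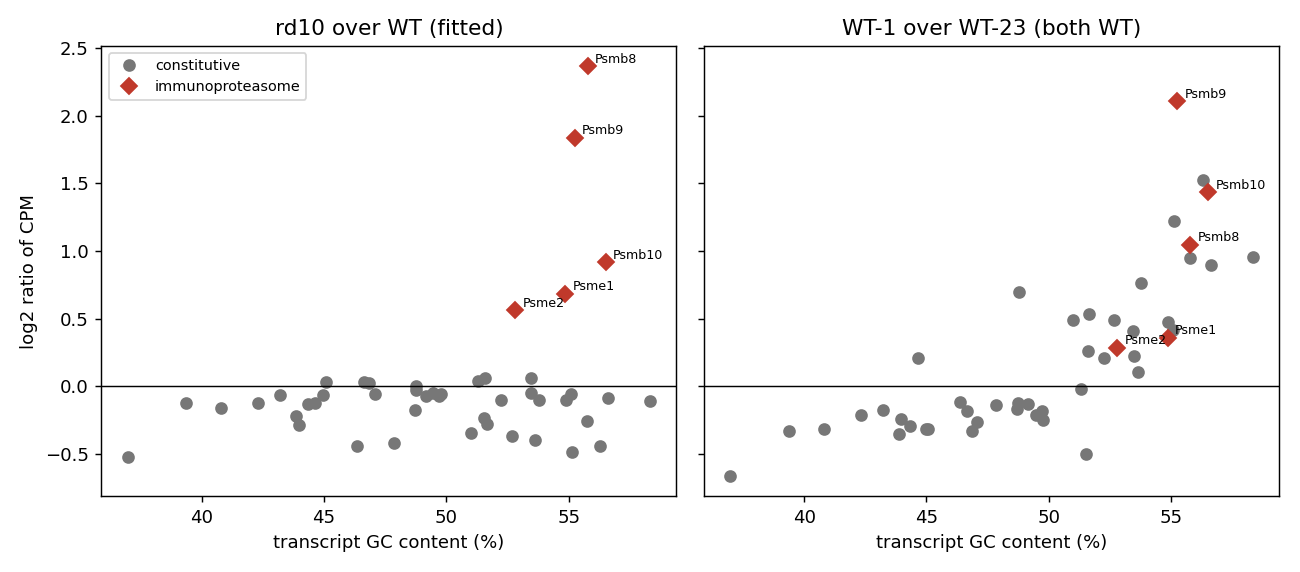
Transcript GC content in percent (x axes) against the log2 ratio of CPM (y axis) for rd10 over WT (left) and for WT-1 over WT-23, both WT (right), with grey circles for 41 constitutive genes and red diamonds for the 5 immunoproteasome genes. The constitutive genes lie flat on the left, between -0.52 and 0.06, and climb with GC content on the right, from -0.66 to 1.53.

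The listed partners of the proteasome, and the listed regulators of its constitutive genes, were not called. Of 17 proteasome partners, including the maturation factor gene Pomp (0.06 ± 0.10), the deubiquitinase gene Usp14 (-0.02 ± 0.15) and the segregase gene Vcp (-0.08 ± 0.11), none was called by edgeR, DESeq2 or limma voom, and 1 had an unadjusted p under 0.05 (Akirin2, a nuclear import factor for proteasomes, -0.50 ± 0.19, adjusted p = 0.127). Of 7 tested regulators on that list none was called by any of these tools, and 2 had an unadjusted p under 0.05. Nfe2l2, the gene of NRF2, averaged 38.2 ± 1.8 CPM in rd10 and 30.0 ± 3.2 CPM in WT (0.35 ± 0.13, adjusted p = 0.109), and Ddi2, the protease that activates NRF1, 11.7 ± 2.1 CPM in rd10 and 16.2 ± 1.6 CPM in WT (-0.47 ± 0.18, adjusted p = 0.117). Nfe2l1, the gene of NRF1, had 0.08 ± 0.10. Of 5 genes of ubiquitin and its activating enzyme, none was called and none had an unadjusted p under 0.05. The counts at an unadjusted p under 0.05 have no share of all genes beside them here.

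The authors' deposited table, which lists genes with a p under 0.05, held 10 of the members among 3427 genes, of which 1449 were higher in rd10. Its name also carries cuts on fold change and FPKM, so a member's absence need not mean a p above 0.05. It gave 5 members as higher in rd10, and these were the 5 immunoproteasome genes, and 5 as lower (Psmc3ip, Psmc6, Psmd11, Psmd8 and Psmg2). For Psmb8 the authors' deposited table gave 15.2 FPKM in rd10 and 3.0 FPKM in WT, on chromosome 17 from 34197721 to 34201454 in mm10, a protein coding gene. For Psmb10 the authors' deposited table gave 8.8 FPKM in rd10 and 4.7 FPKM in WT, with a p of 0.0167, on chromosome 8 from 105935728 to 105938392. Whether these p-values were adjusted is not stated, and the log2 fold changes of the 10 genes in the authors' deposited table were within 0.013 of those fitted here. Psmb10, Psmc6, Psmd11 and Psmg2 were in it but were not called in the main fit here. Their p in it was 0.0167, 0.0134, 0.00983 and 0.0149, against an unadjusted edgeR p of 0.0333, 0.0242, 0.00915 and 0.014 here.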

How the data were processed

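For 3 rd10 and 3 WT retina libraries the authors deposited raw counts per gene symbol. Their gene table holds, per the file headers, FPKM per genotype with a log2 fold change and p-value for each gene. A smaller deposited table of selected genes was not used. The submitters' processing notes name mm10, edgeR, HTSeq and TopHat2 2.1.0 without role or order, and no source used here gives the annotation. Libraries were directional, per the labels' protocols. Column numbers do not run like the replicate numbers of the titles, so columns were assigned by genotype only.

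Totals ran from 10923556 to 12171088 counts in rd10 and from 13573035 to 15818918 in WT. Replicates differed beyond sampling noise (chi-square per degree of freedom 7.36 to 57.8). After filterByExpr, edgeR 4.0.16 (R 4.3.3) was run with TMM factors and its robust quasi-likelihood test, with Benjamini-Hochberg adjustment over 13905 genes and a threshold of 0.05. The error beside each log2 fold change is its SE in this fit. Mean log2 CPM used a prior count of 2. Alternatives used DESeq2 1.42.0, limma 3.58.1 and other scalings (inner neuron scaling sets library factors on markers of ganglion, amacrine and bipolar cells), filters and subsets of libraries, and a test against a fold of 1.2. Exact permutation tests used scipy 1.17.1. In data simulated for this comparison over 13769 genes, 68 genes were changed 1.5-fold, 68 2-fold and 63 4-fold, drawn at random over all expression levels. The fit recovered 13.24%, 60.29% and 96.83% of these. The simulated counts were independent between genes and had no GC trends, and far fewer genes were changed than were called in the real data. The shares recovered are thus not those for the proteasome genes. Transcript length and GC content came from GENCODE M21 (GRCm38), using the principal transcript. At 95% identity over 200 bases, 12 members have another annotated copy.

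The members and gene lists were chosen with earlier results of these data known. Genes given in full were the 5 immunoproteasome genes and their counterparts, Psme3, Psme4, Psmf1, all called members, the 3 most abundant and the largest changes not called; others were named after their values were seen.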

Additional observations from a re-analysis of the deposited data

How the results depend on the processing

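The call of Psmb8 was kept in all 18 alternatives (of which leaving out WT-1 and Rd10-4 was chosen after the data were seen), and the immunoproteasome mean minus the constitutive mean stayed between 1.23 and 1.66. Counts of calls moved. Over all genes 2008 were called, 3043 with library size alone, 4234 with inner neuron scaling, 1285 against a fold of 1.2, 4739 with the GC trend removed and 885 to 3214 with 1 library left out. Of the members 6 were called (4 higher, 2 lower), 16 with inner neuron scaling (13 lower), 3 against a fold of 1.2 (0 lower), 11 with the GC trend removed (6 lower) and 1 to 9 with 1 library left out (1 to 5 higher, 0 to 4 lower). The count lower was 1 with RLE factors, upper quartile factors, no filter or a minimum of 5 CPM, 0 with library size alone and 4 without WT-1 and Rd10-4. Of 843 values over 47 members, 78 changed sign, none of them called in either fit. Among genes described above, inner neuron scaling gave -0.207 for Psmc5, -0.251 for Psmd1, -0.231 for Psmd2 and -0.266 for Psmf1. It gave -0.205 for Psmd13, a 19S gene with 0.063 ± 0.13 (adjusted p = 0.788) in the main edgeR fit. Library size alone gave 0.155 for Psmb5, 0.0628 for Psmb7, 0.186 for Psme3 and 0.0169 for Psme4, and upper quartile factors 0.00518 for Psmb5 and 0.0425 for Psme3. Without WT-1 and Rd10-4, Psmb5 had 0.0209 and Psmd1 -0.00961. With 1 library left out, the lowest and highest values were -0.26 and 0.17 for Psmb5, -0.43 and 0.0251 for Psmb6, -0.0798 and 0.10 for Psmd1, -0.0151 and 0.16 for Psmd13, -0.12 and 0.0264 for Psme3 and -0.15 and 0.16 for Psmf1. The cause of these moves was not tested. No paired analysis was possible because the column names share only 1 number between the genotypes and do not run like the replicate numbers of the titles.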
